A study of Mus musculus with 16 samples.

Results

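The subject here is the set of 5 Wnt ligand genes that mark the stroma of the mouse colon in these data, namely Wnt2b, Wnt4, Wnt5a, Wnt5b and Wnt6. They were taken by name from the 16039 genes of the deposited single-cell table, which holds 11 Wnt genes in all. Wnt ligands are secreted lipid-modified proteins that bind Frizzled receptors with LRP or ROR co-receptors on nearby cells. In the colon, fibroblasts around the crypts are a main source of Wnts, and the crypt epithelium that receives them renews the lining. Wnt2b mostly acts through beta-catenin and helps to maintain intestinal stem cells. Wnt5a and its close relative Wnt5b act largely without beta-catenin, and in mouse colon wounds Wnt5a is known for its part in crypt regeneration. Wnt4 can act by either route and is best known from kidney and reproductive tract development, and Wnt6 is a beta-catenin type ligand of embryonic epithelia.

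Single-cell RNA-seq of the transverse colon was measured in 16 female C57Bl/6J mice, 7 weeks old on arrival, with 1 library per mouse. SZN-1326-p mice received 4% dextran sulfate sodium in their water (DSS, which damages the lining of the colon) and, on day 4, 10 mg/kg of SZN-1326-p, a Wnt mimetic that engages Frizzled and LRP receptors in place of a ligand. Anti-GFP mice received the same DSS and the same dose of a control antibody against a protein that mice do not have, and uninjured mice drank no DSS. Tissue was taken 24 h after dosing (day 5) or 48 h after dosing (day 6) from 3 SZN-1326-p, 3 anti-GFP and 2 uninjured mice at each time. The uninjured mice were not described as dosed, and the anti-GFP mice are part of both comparisons below, DSS against no injury and SZN-1326-p against anti-GFP, so that the comparisons are not independent.

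The libraries held 936 to 2033 cells and 9616512 to 21335421 UMIs (distinct captured transcripts) each, with a median of 6459 to 11153.5 UMIs per cell. Of 22717 cells, 7509 were stromal by the authors' annotation, in 18 of 46 cell types, and 129 cells carried a barcode sequence that also occurs in another library. Mitochondrial genes took a median of 24.1% of a cell's UMIs in SZN-1326-p 48 h mouse 3 and 18.9% in SZN-1326-p 24 h mouse 2, at most 11.6% in the other DSS mice, and 19.2% to 26.1% in uninjured mice. Levels below are normalized UMIs per cell, the UMI count over the authors' size factor of the cell, averaged over the cells of a mouse. "Fibroblasts" are the 5828 cells of the 9 authors' types with FB in the name.

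Those names were checked against marker genes. Summed over 6 fibroblast markers (Col1a1, Col1a2, Col3a1, Dcn, Lum, Pdgfra), 7 of the 9 types held 118 to 365 normalized UMIs per cell. MyoFB held 59.6 with 148 for 6 smooth muscle markers, and MuralLikeFB held 24.8 with 449, which goes against a fibroblast name for that type. Markers of subepithelial, Pdgfra-high fibroblasts (telocytes, the cells that lie directly under the crypt epithelium) summed to 27.5 in CryptFB1 and 34.0 in CryptFB2. Glia1 held 45.0 for 5 glial markers.

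The genes lie on 5 chromosomes. In GENCODE vM21 (mm10), Wnt6 spans chr1:74771892-74785322 on the plus strand, Wnt2b chr3:104945272-104961921 on the minus strand and Wnt4 chr4:137277489-137299726 on the plus strand. Wnt5b spans chr6:119432531-119544347 on the minus strand and Wnt5a chr14:28504750-28527448 on the plus strand. RefSeq promoter windows (build GRCm38.p6) were matched for Wnt2b, Wnt4, Wnt5b and Wnt6 and not for Wnt5a. The 250 bases directly upstream of a start were searched on both strands for TCF/LEF (CTTTGAA or CTTTGAT, the nuclear end of beta-catenin signalling), AP-1 (TGANTCA), forkhead (TGTTTAC), GLI (GACCACCCA) and kappaB letters, which do not overlap one another here. These occurred in 7.48%, 6.75%, 3.17%, 0.225% and 0.356% of 32851 such windows, in that order. Wnt5b is shown at the distal and the most proximal of its annotated starts because it was the only member with matches, and Wnt6, the member with the least fibroblast-centred pattern, is shown beside it. Capitals mark the match, TGAGTCA at position 60 in the first sequence and CTTTGAT at position 180 in the second, and all are 5′ to 3′ on the gene's strand. These windows are non-exonic in GENCODE, and a match of letters is a description of sequence, not a bound site.
Wnt5b distal start, chr6:119544348-119544597, minus strand: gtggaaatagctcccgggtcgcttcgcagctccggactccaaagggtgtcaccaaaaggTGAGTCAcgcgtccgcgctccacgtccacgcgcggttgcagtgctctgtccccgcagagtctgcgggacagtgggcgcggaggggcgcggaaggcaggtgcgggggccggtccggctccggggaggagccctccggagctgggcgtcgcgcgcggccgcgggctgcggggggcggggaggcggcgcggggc
Wnt5b proximal start, chr6:119449387-119449636, minus strand: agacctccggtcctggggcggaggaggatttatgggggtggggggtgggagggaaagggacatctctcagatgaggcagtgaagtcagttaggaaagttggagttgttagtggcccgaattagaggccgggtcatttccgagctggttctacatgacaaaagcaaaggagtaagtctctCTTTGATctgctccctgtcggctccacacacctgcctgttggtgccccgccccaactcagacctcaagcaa
Wnt6, chr1:74771642-74771891, plus strand: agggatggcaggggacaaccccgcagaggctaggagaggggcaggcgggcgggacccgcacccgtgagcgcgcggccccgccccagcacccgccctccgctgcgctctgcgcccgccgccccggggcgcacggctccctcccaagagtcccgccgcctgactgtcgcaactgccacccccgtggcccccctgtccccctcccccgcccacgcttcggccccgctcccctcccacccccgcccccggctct

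Stromal cells held nearly all transcripts of 4 of the members. Of 14028 Wnt5a UMIs, 98.9% were in stromal cells and 98.7% in fibroblasts. Of 9374 Wnt4 UMIs, 95.4% were in fibroblasts, as were 97.1% of 1944 Wnt5b UMIs and 97.1% of 1052 Wnt2b UMIs. Wnt6 was spread more widely, with 55.6% of its 581 UMIs in fibroblasts, 12.0% in epithelial cells and 5.34% in immune cells. By mouse, the stromal part of Wnt5a UMIs was between 91.3% and 100%, and that of Wnt6 between 62.5% and 91.4%.

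Within the stroma each ligand had its own order of cell types, described here without a test because the authors drew the types from the expression of the same cells. Wnt5a was highest in CryptFB2, at 8.11 ± 1.50 normalized UMIs per cell (SD, n = 14 mice with at least 10 such cells), then in CryptFB1 at 4.65 ± 1.64 (n = 16). FB3 came next at 0.567 ± 0.254 (n = 10). The ranges of mean ± SD did not overlap between CryptFB2 and CryptFB1, or between CryptFB1 and FB3. Single mice of CryptFB2 and CryptFB1 did overlap, as their values by arm below show. The types further down (InjuryCryptFB1 0.446, InjuryCryptFB2 0.411, BaseCryptFB2 0.372, BaseCryptFB1 0.260, MyoFB 0.183) overlapped their neighbours.

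Wnt4 followed the same leading pair but reached further down. Its level was 2.61 ± 0.542 in CryptFB2 (n = 14), 2.23 ± 0.624 in CryptFB1 (n = 16), 1.47 ± 0.897 in InjuryCryptFB1 (n = 11), 1.36 ± 0.733 in InjuryCryptFB2 (n = 14), 1.01 ± 0.221 in BaseCryptFB1 (n = 4) and 0.798 ± 0.391 in MyoFB (n = 16). Each of these overlapped the next of them within its spread, so Wnt4 had a gradient over these types and no clear leader. The remaining fibroblast types lay well below MyoFB, with BaseCryptFB2 at 0.0677 ± 0.0803 (n = 16), MuralLikeFB at 0.0170 and FB3 at 0.00835. Wnt5b was at 0.624 ± 0.295 in CryptFB2 and 0.402 ± 0.152 in CryptFB1, with BaseCryptFB1 at 0.335, InjuryCryptFB1 at 0.312 and InjuryCryptFB2 at 0.244, all overlapping.

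Wnt2b was arranged the other way. It was highest in BaseCryptFB1 at 0.366 ± 0.0454 (n = 4, all uninjured mice) and MuralLikeFB at 0.329 ± 0.206 (n = 5), which overlapped, and at 0.0788 in CryptFB1. InjuryCryptFB1 (0.254), InjuryCryptFB2 (0.200) and MyoFB (0.145) lay between. Wnt6 was highest outside the crypt fibroblasts, in MuralLikeFB at 0.650 ± 0.340 (n = 5, 112 UMIs over all mice) and in enteric glia. Glia1 was at 0.570 ± 0.388 (n = 7, 92 UMIs over all mice), which overlapped MuralLikeFB. Glia2 was at 0.422 (n = 1, 35 UMIs over all mice). By share of a type's pooled UMIs the order was Glia2, Glia1 and MuralLikeFB. Interstitial cells of Cajal (the pacemaker cells of gut muscle) held 0.110 and MyoFB 0.0828.

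**Figure D1:**
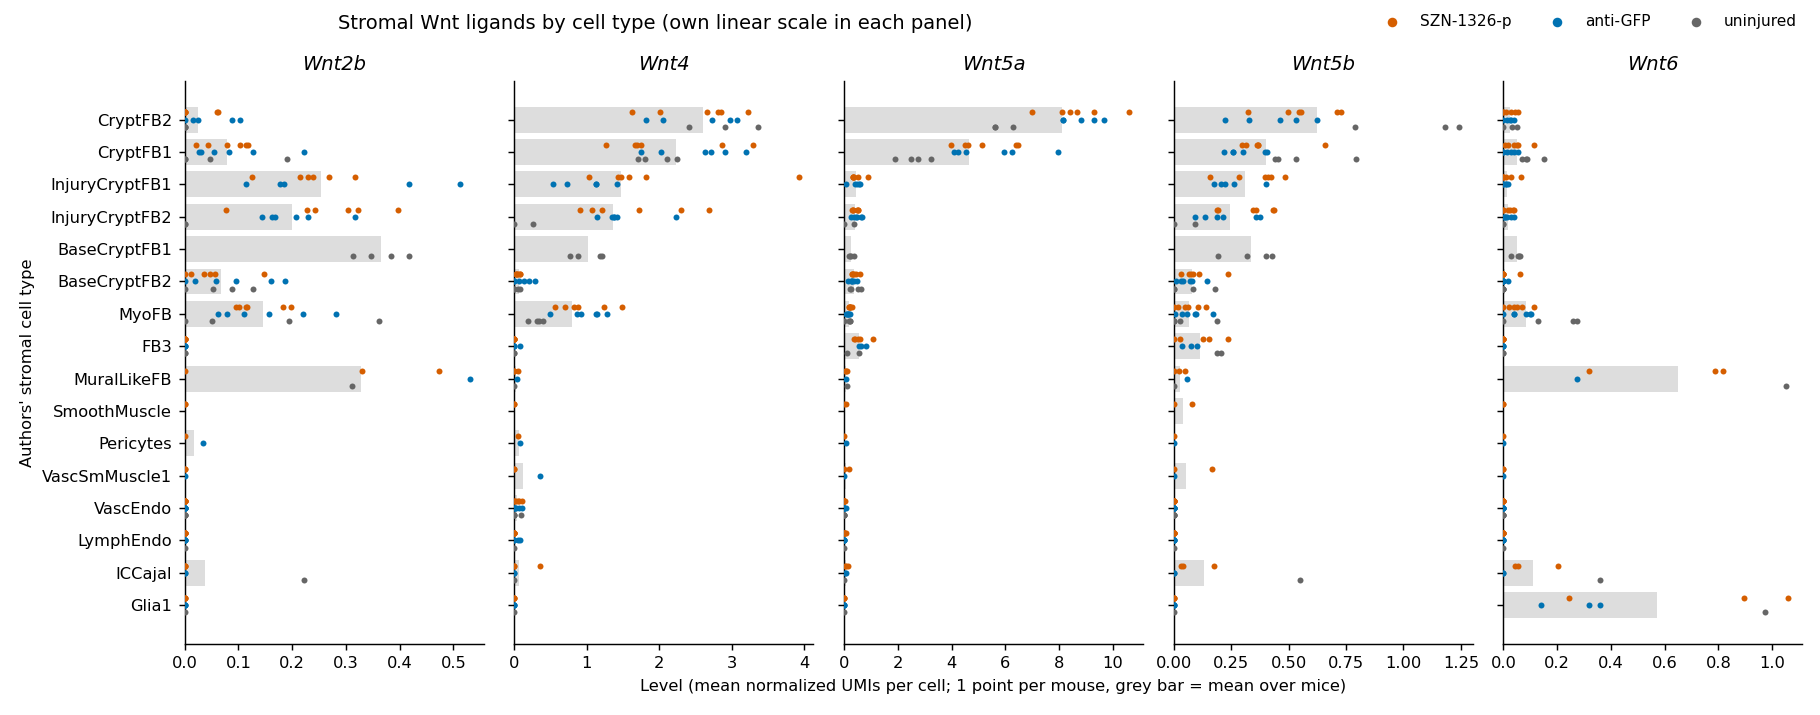
Mean normalized UMIs per cell (horizontal axis, own linear scale in each panel) of the 5 ligands by stromal type. The authors' types with at least 10 cells in a mouse are shown, without Glia2. Each point is 1 mouse coloured by arm and the grey bar is the mean over mice. Wnt5a is concentrated in CryptFB2 (8.11) and CryptFB1 (4.65). The highest means of Wnt2b are in BaseCryptFB1 and MuralLikeFB, with InjuryCryptFB1 (0.254) and InjuryCryptFB2 (0.200) next. Those of Wnt6 are in MuralLikeFB and Glia1.

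Detection per cell was also read at equal depth. With each cell thinned to 3000 UMIs, 88.95% of CryptFB2 cells and 64.6% of CryptFB1 cells held a Wnt5a UMI, against 16.7% of FB3 cells. Wnt4 was detected in 51.4% of CryptFB2, 41.1% of CryptFB1, 30.3% of InjuryCryptFB2, 26.4% of InjuryCryptFB1, 24.2% of BaseCryptFB1 and 18.6% of MyoFB cells. Lymphocytes, plasma cells and neutrophils, which should lack these ligands, held a UMI of Wnt4 in 0.504% of 793 thinned cells and of the other 4 members in 0 of 793, which allows a share of up to 0.378%. Their median depth before thinning was 2680 UMIs, and the limit covers counting error only.

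Wnt5b was detected in 19.1% of CryptFB2 and 14.3% of CryptFB1 cells. Wnt2b was detected in 13.0% of MuralLikeFB and 11.9% of BaseCryptFB1 cells, so that its order there was the reverse of that of the mean levels, within counting error. Wnt6 was detected in 25.7% of Glia1, 20.3% of MuralLikeFB and 17.0% of Glia2 cells, where the mean level was higher in MuralLikeFB than in Glia1. Before thinning, 97.3% of CryptFB2 cells held a Wnt5a UMI (median depth 12226 UMIs). Wnt2b was then found in 36.2% of MuralLikeFB cells (median depth 10878 UMIs) and 22.9% of BaseCryptFB1 cells (median depth 7127.5 UMIs). Wnt6 was found in 44.9% of MuralLikeFB cells and 37.4% of Glia1 cells (median depth 5788 UMIs).

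The first comparison asks how the ligands of injured colon differ from those of healthy colon, with anti-GFP mice on DSS set against uninjured mice. In pooled fibroblasts Wnt5a rose 2.76-fold, Wnt4 rose by less, Wnt5b fell, and Wnt2b and Wnt6 had lower means that did not pass the test. Of 11110 genes tested, 22.2% passed at an adjusted p of 0.05 (12.4% higher and 9.79% lower in anti-GFP), so the 3 of 5 members that passed stand against that background.

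The Wnt5a level was 2.29, 2.83 and 1.84 normalized UMIs per cell in the anti-GFP mice at 24 h and 1.93, 2.43 and 1.81 at 48 h, against 0.790 and 0.819 in the uninjured mice at 24 h and 0.738 and 0.760 at 48 h. All 6 anti-GFP mice were above all 4 uninjured mice, at both times. The means were 2.19 ± 0.401 in anti-GFP mice (SD, n = 6) and 0.777 ± 0.0353 in uninjured mice (n = 4), a log2 change of 1.46 ± 0.15 (SE, limma, adjusted p = 9.16e-07).

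The Wnt4 level was 1.80, 1.63 and 1.13 in the anti-GFP mice at 24 h and 1.36, 1.45 and 1.11 at 48 h, against 0.847 and 0.828 in the uninjured mice at 24 h and 1.16 and 1.01 at 48 h. All anti-GFP mice were above the uninjured mean, with overlap at 48 h. The log2 change was 0.54 ± 0.19 (limma, adjusted p = 0.0448), just past the threshold, and the call was lost under 6 of the 14 other settings and in 8 of the 10 fits that left out 1 mouse. The adjusted p was 0.0985 and 0.0927 without anti-GFP 24 h mouse 1 or 2, 0.0798 and 0.0963 without anti-GFP 48 h mouse 1 or 2, 0.0817 and 0.101 without uninjured 24 h mouse 1 or 2, and 0.0889 and 0.149 without uninjured 48 h mouse 1 or 2.

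Wnt5b went in the other direction from its relative. Its level was 0.152, 0.173 and 0.269 in the anti-GFP mice at 24 h and 0.316, 0.189 and 0.175 at 48 h, against 0.262 and 0.316 in the uninjured mice at 24 h and 0.303 and 0.358 at 48 h. The anti-GFP mice were lower in all but 2 mice, which lay within the uninjured range. The log2 change was -0.56 ± 0.19 (limma, adjusted p = 0.0346), and the call was lost under 6 of the 14 other settings. On means of the deposited log2 values, another scale, the change was -0.048 (adjusted p = 0.218). Without 1 mouse the call was lost in 7 of 10 fits. The adjusted p was 0.0801 and 0.0762 without anti-GFP 24 h mouse 1 or 2, 0.0808 and 0.0838 without anti-GFP 48 h mouse 2 or 3, 0.110 without uninjured 24 h mouse 2, and 0.0665 and 0.132 without uninjured 48 h mouse 1 or 2.

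Wnt2b averaged 0.151 ± 0.0313 in anti-GFP mice and 0.232 ± 0.0302 in uninjured mice, with no overlap between the groups, for a log2 change of -0.61 ± 0.24 (adjusted p = 0.0701). Wnt6 averaged 0.0364 ± 0.0151 in anti-GFP mice and 0.0697 ± 0.0137 in uninjured mice, for a log2 change of -0.82 ± 0.30 (adjusted p = 0.0521). Neither passed the test. The Wnt6 values rest on 11 to 20 UMIs per anti-GFP mouse and 6 to 32 per uninjured mouse. They also leave out the stromal types outside the fibroblasts. Those types held 52.1% ± 8.37 of stromal Wnt6 in anti-GFP mice and 19.6% ± 11.8 in uninjured mice, a difference that was not tested. Wnt2b passed under 4 of the 14 other settings and was at 0.34, on the other side of 0, with equal weights of fibroblast types. Wnt6 passed under 8 of the 14, and Wnt6 also passed without anti-GFP 24 h mouse 1 (adjusted p = 0.0408) or 48 h mouse 3 (adjusted p = 0.0284).

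**Figure D2:**
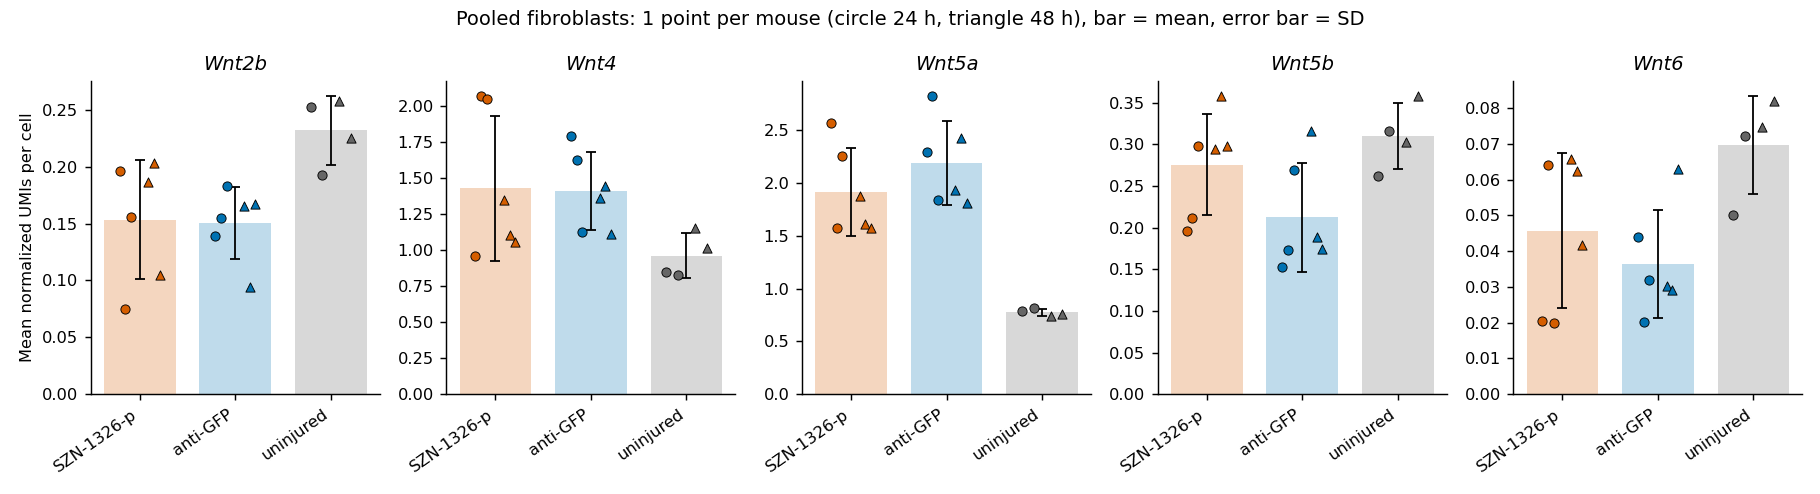
Mean normalized UMIs per fibroblast (vertical axis, linear, own scale in each panel) in SZN-1326-p, anti-GFP and uninjured mice; circles are 24 h and triangles 48 h mice, bars are means and error bars the SD over mice. The 4 uninjured mice sit between 0.738 and 0.819 for Wnt5a, below every DSS mouse.

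Several other measures moved with the same groups, and their part in these results was not tested. The median depth of fibroblasts was 12148.5 UMIs per cell in anti-GFP mice and 6829 in uninjured mice. Summed over 5 epithelial markers, fibroblasts held 0.429 to 1.99 normalized UMIs per cell in anti-GFP mice and 2.68 to 6.04 in uninjured mice. For 3 plasma cell markers the ranges were 0.0758 to 0.213 in anti-GFP mice and 0.403 to 9.48 in uninjured mice. Telocyte markers summed to 10.6 to 18.0 in anti-GFP mice and 6.66 to 9.85 in uninjured mice, pericyte markers to 3.31 to 4.14 in anti-GFP mice and 2.10 to 2.51 in uninjured mice, and lymphatic endothelial markers to 2.50 to 3.73 in anti-GFP mice and 1.53 to 1.88 in uninjured mice. Neutrophil markers summed to 0.0178 to 0.0859 in anti-GFP mice and 0 to 0.00298 in uninjured mice. These 6 of 17 marker lists did not overlap between the groups. Pdpn was the highest lymphatic endothelial marker in every fibroblast type. Pdgfrb was the highest pericyte marker in the crypt fibroblast types. These sums are therefore no measure of other cell types alone, and their source was not tested. The median mitochondrial share over all cells of a mouse was 5.06% to 11.6% in anti-GFP mice and 19.2% to 26.1% in uninjured mice. With cells that held 2 or more markers of another lineage left out, Wnt5a still passed the test, and the Wnt5b change was -0.48, against -0.56 with all cells, and did not pass (adjusted p = 0.148).

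The fibroblast types themselves differed between the groups. BaseCryptFB1 made up 0% of stromal cells in anti-GFP mice and 42.9% in uninjured mice, and InjuryCryptFB2 made up 19.3% in anti-GFP mice and 1.69% in uninjured mice. Each type was then given 1 fixed level, its mean over mice of all arms, so that only the type shares varied. The log2 change was 0.68 for Wnt5a beside an observed 1.46, and 0.31 for Wnt4 beside 0.54. For Wnt2b the type shares alone gave -0.73 beside -0.61, for Wnt5b -0.11 beside -0.56 and for Wnt6 -0.10 beside -0.82. Where a type was near absent in 1 arm, its share cannot be told apart from a change of level in relabelled cells. These values are therefore descriptions.

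The cells that carried each ligand changed with the types. BaseCryptFB1 held 0% of stromal Wnt2b in anti-GFP mice and 81.6% ± 10.9 in uninjured mice. It also held 0% of the other 4 ligands in anti-GFP mice, while in uninjured mice it held 54.1% of Wnt4, 54.0% of Wnt5b, 32.5% of Wnt6 and 17.5% of Wnt5a. Of the 754 cells of this type 744 came from uninjured mice and 0 from anti-GFP mice, so that these shares follow from where the type was found and are given as a description.

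InjuryCryptFB2 held 36.1% ± 11.6 of stromal Wnt2b, 27.3% of Wnt4, 27.1% of Wnt5b and 5.69% of Wnt5a in anti-GFP mice, against 0%, 0.378%, 0.132% and 0.253% of the same ligands in uninjured mice. InjuryCryptFB1 held 19.4% of Wnt2b and 13.9% of Wnt5b in anti-GFP mice and 0% of either in uninjured mice. Uninjured mice had 27 cells of InjuryCryptFB2 and 2 of InjuryCryptFB1, so that these shares too restate where the types were found. MyoFB held 9.66% ± 3.30 of Wnt4 in anti-GFP mice and 3.09% ± 0.393 in uninjured mice, and BaseCryptFB2 held 2.02% ± 1.21 of Wnt5a in anti-GFP mice and 6.25% ± 1.89 in uninjured mice. A two-sided permutation of arms within each time gave exact p = 0.01 for both, the smallest that 100 arrangements allow. Adjusted over all 45 shares both had exact permutation p = 0.0346, but 11 of the 13 shares that passed there belong to the 3 types near absent in 1 arm. Adjusted over the other 30 shares, a choice made after seeing the data, both had adjusted exact permutation p = 0.15 and 0 passed. On recovered UMIs the BaseCryptFB2 shares of Wnt5a were 2.10% in anti-GFP mice and 4.78% in uninjured mice (exact permutation p = 0.05, adjusted p = 0.132 over 45 shares). For the main holders of Wnt5a no shift passed the test: CryptFB1 held 55.4% ± 15.7 in anti-GFP mice and 52.6% ± 7.29 in uninjured mice (exact permutation p = 0.78), and CryptFB2 held 31.9% ± 13.2 in anti-GFP mice and 19.7% ± 13.4 in uninjured mice (exact permutation p = 0.19).

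**Figure D3:**
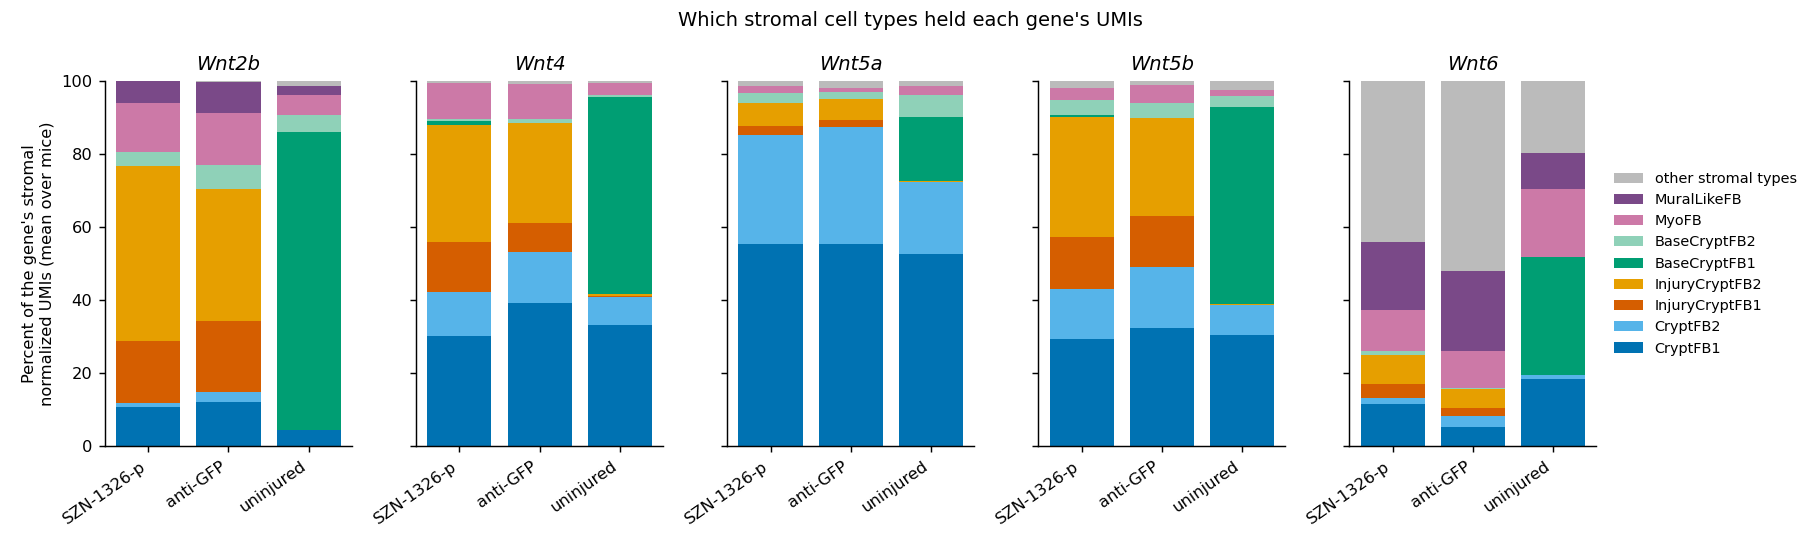
Percent of each gene's stromal normalized UMIs (vertical axis, stacked to 100) held by the authors' stromal types, as means over the mice of each arm. BaseCryptFB1 holds 81.6% of Wnt2b in uninjured mice and 0% in anti-GFP mice, while CryptFB1 and CryptFB2 hold most of Wnt5a in every arm.

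Among cells annotated CryptFB1, Wnt5a was also higher in anti-GFP mice. The level was 4.54, 7.96 and 5.93 in the anti-GFP mice at 24 h and 4.24, 6.24 and 4.08 at 48 h, against 2.74 and 3.25 in the uninjured mice at 24 h and 1.91 and 2.50 at 48 h. The groups did not overlap. The log2 change was 1.06 ± 0.20 (limma, adjusted p = 0.000611; 15.0% of 11403 genes passed in this type), and it stayed between 0.96 and 1.16 in the 10 fits that left out 1 mouse. Smooth muscle markers in these cells summed to 2.81 to 9.73 in anti-GFP mice and 13.1 to 18.3 in uninjured mice, and epithelial markers to 0.397 to 1.76 in anti-GFP mice and 3.36 to 6.55 in uninjured mice. Median depth in the type was 11749 UMIs in anti-GFP mice and 6195 in uninjured mice, and the part of these measures was not tested.

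Wnt5b fell in CryptFB1 while Wnt5a rose. The directions were the same in CryptFB2 (below), where the Wnt5a change did not pass. The CryptFB1 level of Wnt5b was 0.256, 0.221 and 0.406 in the anti-GFP mice at 24 h and 0.398, 0.300 and 0.257 at 48 h. In the uninjured mice it was 0.793 and 0.456 at 24 h and 0.442 and 0.532 at 48 h. The groups did not overlap, and the log2 change was -0.83 ± 0.26 (adjusted p = 0.0283). In fits without 1 mouse it ranged from -1.03 to -0.64, and the call was lost in 7 of 10. The adjusted p was 0.0544 and 0.0737 without anti-GFP 24 h mouse 1 or 2, 0.0556 and 0.0638 without anti-GFP 48 h mouse 2 or 3, 0.114 without uninjured 24 h mouse 1, and 0.0588 and 0.106 without uninjured 48 h mouse 1 or 2.

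Wnt6 in CryptFB1 rested on few transcripts, 14 UMIs in anti-GFP mice and 18 in uninjured mice. Its level was 0.0224 ± 0.0220 in anti-GFP mice and 0.0971 ± 0.0366 in uninjured mice, a log2 change of -2.02 ± 0.56 (adjusted p = 0.0157), and the adjusted p was 0.0637 without uninjured 48 h mouse 1. Wnt4 in CryptFB1 was 2.54 ± 0.545 in anti-GFP mice and 1.97 ± 0.249 in uninjured mice (log2 change 0.34, adjusted p = 0.270), and Wnt2b also did not pass (1.30, adjusted p = 0.103).

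In MyoFB, the fibroblasts with smooth muscle genes, Wnt4 was the ligand that rose. Its level was 1.14, 1.12 and 0.494 in the anti-GFP mice at 24 h and 0.866, 0.915 and 1.28 at 48 h, against 0.193 in uninjured 24 h mouse 2 and 0.342 and 0.314 at 48 h. The fourth uninjured mouse had 15 MyoFB cells, under the minimum of 20, and a level of 0.389. The groups did not overlap, and the log2 change was 1.84 ± 0.29 (adjusted p = 0.000117; 7.73% of 11223 genes passed), between 1.74 and 2.04 with any 1 mouse left out. Smooth muscle markers summed to 90.9 to 155 in anti-GFP MyoFB and 231 to 254 in uninjured MyoFB, and epithelial markers to 0.250 to 1.74 in anti-GFP MyoFB and 2.66 to 4.88 in uninjured MyoFB. The part of these measures was not tested. The other members did not pass in MyoFB, with Wnt5b at a log2 change of 2.32 (adjusted p = 0.0627), Wnt6 at -1.82 (adjusted p = 0.129) and Wnt2b at 1.24 (adjusted p = 0.387). The Wnt5b and Wnt2b values lay on the other side of 0 from their changes in pooled fibroblasts. Wnt5a in MyoFB was 0.160 ± 0.0574 in anti-GFP mice (n = 6) and 0.217 ± 0.0252 in uninjured mice (n = 3), with overlap and a log2 change of -0.53 (limma, adjusted p = 0.452), which lay on the other side of 0 from its change in pooled fibroblasts. The sign of that value turned with the uninjured mouse of 15 MyoFB cells included, which held no Wnt5a UMI (log2 change 0.63). Wnt5b passed without anti-GFP 24 h mouse 2 or uninjured 48 h mouse 2 (adjusted p = 0.0385 and 0.0384), and Wnt2b passed without uninjured 48 h mouse 1 (adjusted p = 0.00453).

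CryptFB2 had enough uninjured cells only at a minimum of 10 per mouse (11, 11 and 22 cells), where 8.71% of 11327 genes passed. There Wnt5b was 0.222 and 0.330 in the anti-GFP mice at 24 h and 0.622, 0.533 and 0.461 at 48 h, against 0.789, 1.18 and 1.24 in uninjured mice. The groups did not overlap, and Wnt5b fell by 1.34 ± 0.31 on the log2 scale (adjusted p = 0.00808). Wnt5a was 8.13 to 9.67 in anti-GFP mice and 5.60, 5.60 and 6.27 in uninjured mice, which did not overlap either, with a log2 change of 0.55 ± 0.18 that did not pass (adjusted p = 0.0513). The other members did not pass in CryptFB2. Wnt2b, with 17 UMIs there over all mice, had a log2 change of 2.09 (limma, adjusted p = 0.177). It lay on the other side of 0 from its change in pooled fibroblasts, as it did in CryptFB1 and MyoFB. In BaseCryptFB2, where 7.56% of 11575 genes passed, none of the 4 members tested did in limma. Of these members 0 had an unadjusted p under 0.05 in limma, against 21.3% of the genes. Wnt5a there was 0.312 ± 0.117 in anti-GFP mice and 0.421 ± 0.197 in uninjured mice, with overlap and a log2 change of -0.39 (limma, adjusted p = 0.533).

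**Figure D4:**
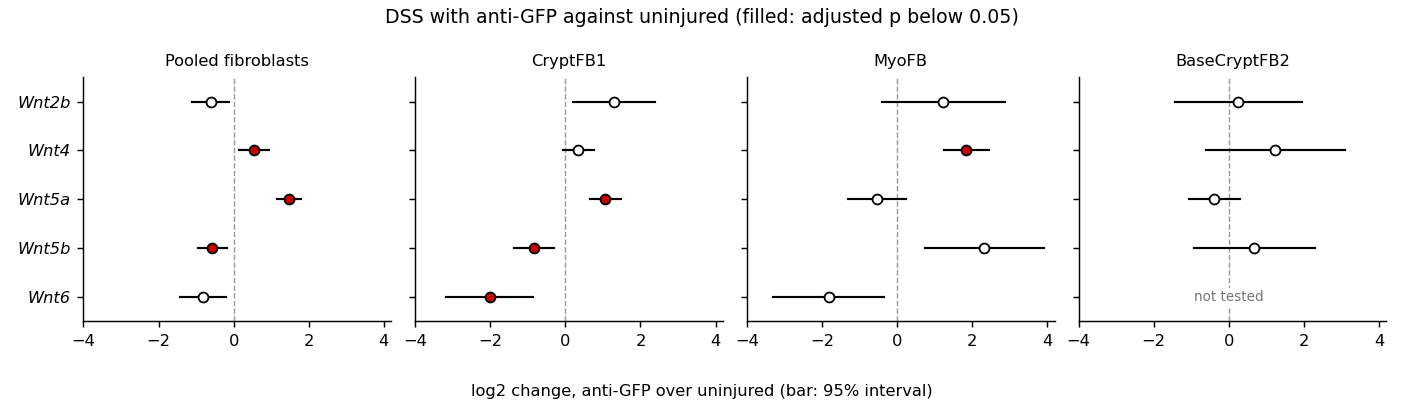
Log2 change of each ligand, anti-GFP over uninjured (horizontal axis), in pooled fibroblasts and 3 of the authors' types; bars are 95% intervals and filled points passed an adjusted p of 0.05. Wnt5a lies above 0 in pooled fibroblasts and CryptFB1, Wnt4 in pooled fibroblasts and MyoFB, and Wnt5b below 0 in pooled fibroblasts and CryptFB1.

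Pooled epithelial and pooled endothelial cells held low levels of the ligands. In pooled epithelial cells, where 23.3% of genes passed, Wnt4 was the only member above the filter on low values, at 0.0306 ± 0.0237 in anti-GFP mice and 0.0169 ± 0.00194 in uninjured mice (adjusted p = 0.480). In endothelial cells, where 3.26% of genes passed, Wnt4 (adjusted p = 0.598) and Wnt5a (adjusted p = 0.433) were tested and did not pass.

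Other parts of the Wnt pathway in fibroblasts were read from lists chosen by role. Among 9 genes of Wnt secretion, 2 rose and none fell with DSS (median log2 change 0.04, against 0.02 over all genes), which is the 22.2% called over all genes. Both were modest: Tmed5, a trafficking protein of the early secretory pathway, by 0.42 (adjusted p = 0.0256) and Ykt6, a SNARE of membrane fusion, by 0.48 (adjusted p = 0.0308). Wls, the carrier that takes Wnts to the cell surface, was 1.67 ± 0.165 in anti-GFP mice and 1.79 ± 0.176 in uninjured mice, and Porcn, which attaches the lipid, also did not pass.

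Of 13 receptor genes tested, 5 rose and 1 fell (median 0.30), beside 12.4% higher and 9.79% lower over all genes. Fzd1 was 2.93 ± 0.217 in anti-GFP mice and 1.48 ± 0.109 in uninjured mice (log2 change 0.98, adjusted p = 3.04e-06), while Fzd2 was 0.494 ± 0.0957 in anti-GFP mice and 0.833 ± 0.0768 in uninjured mice (-0.76, adjusted p = 0.00114). Ror1 (0.91) and Ror2 (0.84), co-receptors of Wnt5a, rose, as did Ptk7 (0.54) and Lrp6 (0.51). The Ror2 level was 0.409 ± 0.0578 in anti-GFP mice and 0.224 ± 0.0383 in uninjured mice (adjusted p = 0.00048).

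Of 8 secreted inhibitors tested, 5 rose and 1 fell (median 1.38), beside the same 12.4% and 9.79%. Sfrp1, which binds Wnts outside the cell, was 15.5 ± 2.85 in anti-GFP mice and 7.19 ± 0.482 in uninjured mice (log2 change 1.09). Igfbp4, a binding protein that can also block Wnt receptors, was 25.6 ± 5.00 in anti-GFP mice and 7.94 ± 1.08 in uninjured mice (1.67). Levels in anti-GFP mice were 0.251 for Wif1, 0.138 for Sfrp2 and 0.0566 for Draxin, against 0.0456, 0.0181 and 0.000926 for the same genes in uninjured mice. All 3 rose past the test, with fitted sizes that depend on the pseudocount at such low levels. Dkk3 was lower in anti-GFP mice, at 1.51 ± 0.278, against 2.20 ± 0.0861 in uninjured mice (-0.56, adjusted p = 0.00539).

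R-spondins are secreted proteins that keep Wnt receptors at the cell surface. Of 4 genes tested from the R-spondin list, which also holds their receptors and Grem1, 3 rose and 1 fell (median 1.32), beside 12.4% higher and 9.79% lower over all genes. Grem1, a BMP antagonist of crypt-base stroma, was 6.41 ± 1.05 in anti-GFP mice and 1.56 ± 0.364 in uninjured mice (2.04, adjusted p = 1.31e-08). Rspo1 rose by 1.78 and Rspo3 by 0.87, and the R-spondin receptor Lgr4 fell by 0.66. Among 9 Wnt target and feedback genes tested, 1 rose (Nkd1, by 0.79) and 1 fell (Ccnd1, by 1.93), again the 22.2% called over all genes. Axin2, the usual readout of beta-catenin signalling, was 0.0742 ± 0.0195 in anti-GFP mice and 0.0925 ± 0.0205 in uninjured mice (adjusted p = 0.368). Of the other Wnt ligands only Wnt2 and Wnt16 were tested, and neither passed.

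The second comparison asks what a Wnt mimetic does to the ligands themselves, in SZN-1326-p mice relative to anti-GFP mice, all on DSS. No member passed in pooled fibroblasts, over both times (0 of 5, where 0.135% of genes passed), at 24 h (0.009%), at 48 h (0.09%) or in the difference between times (0.0%). By limma 1 of 5 members, Wnt5b, had an unadjusted p under 0.05 over both times and at 48 h, as had 11.4% and 8.41% of all genes. At 24 h and in the difference between times 0 of 5 did, beside 6.68% and 4.95% of all genes. Voom weights on UMI sums also called 0 of 5.

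Wnt5b was the member nearest to a difference. Its level was 0.196, 0.212 and 0.298 in the SZN-1326-p mice at 24 h and 0.295, 0.358 and 0.298 at 48 h, against 0.152, 0.173 and 0.269 in the anti-GFP mice at 24 h and 0.316, 0.189 and 0.175 at 48 h. The groups overlapped at both times. The log2 change was 0.38 (95% interval 0.03 to 0.73, limma, adjusted p = 0.415), 0.25 at 24 h and 0.51 at 48 h.

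Wnt5a, which rose with DSS, was 2.57, 1.58 and 2.26 in the SZN-1326-p mice at 24 h and 1.88, 1.61 and 1.57 at 48 h, against a mean of 2.19 ± 0.401 in anti-GFP mice. All these mice were above the uninjured range. Its log2 change was -0.20 (95% interval -0.48 to 0.08). Wnt4 was 0.962, 2.07 and 2.05 in the SZN-1326-p mice at 24 h and 1.35, 1.10 and 1.05 at 48 h, against a mean of 1.41 ± 0.272 in anti-GFP mice, with a log2 change of -0.03 (-0.38 to 0.32).

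Wnt2b was 0.153 ± 0.0526 in SZN-1326-p mice and 0.151 ± 0.0313 in anti-GFP mice (log2 change -0.02, interval -0.46 to 0.42). Wnt6 was 0.0457 ± 0.0216 in SZN-1326-p mice and 0.0364 ± 0.0151 in anti-GFP mice (0.21, -0.34 to 0.77). Values of the 2 groups overlapped for both genes.

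Stromal types taken one by one gave no call either. In 7 types with enough cells, 27 tests of members were made for each contrast, and 0 passed over both times, at 24 h, at 48 h and in the difference between times, where 0.0165%, 0.00127%, 0.0279% and 0.00381% of all gene tests passed, in that order. By limma 1, 2, 2 and 2 of the 27 had an unadjusted p under 0.05. Over all genes of a type that share was 3.88% to 10.1% over both times and 2.71% to 8.28% at 24 h. It was 2.59% to 7.1% at 48 h and 2.6% to 5.17% in the difference between times. The smallest adjusted p over both times was 0.546, for Wnt5b in CryptFB2. The CryptFB1 share of stromal Wnt4 was 30.3% ± 8.35 in SZN-1326-p mice and 39.2% ± 6.04 in anti-GFP mice (two-sided exact permutation p = 0.015, adjusted p = 0.562 over 45 shares).

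The pathway lists also held no gene that passed for SZN-1326-p in fibroblasts over both times (0 of 45 tested by limma, 9 of them with an unadjusted p under 0.05, as had 11.4% of all 11110 genes). Grem1 was nearest over both times, at 4.47 in SZN-1326-p mice and 6.41 in anti-GFP mice (log2 change -0.53, adjusted p = 0.161). Median depth differed here too, at 8694 UMIs per fibroblast in SZN-1326-p mice and 12148.5 in anti-GFP mice, and epithelial markers summed to 1.56 to 4.03 in SZN-1326-p fibroblasts and 0.429 to 1.99 in anti-GFP fibroblasts; their part was not tested.

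**Figure D5:**
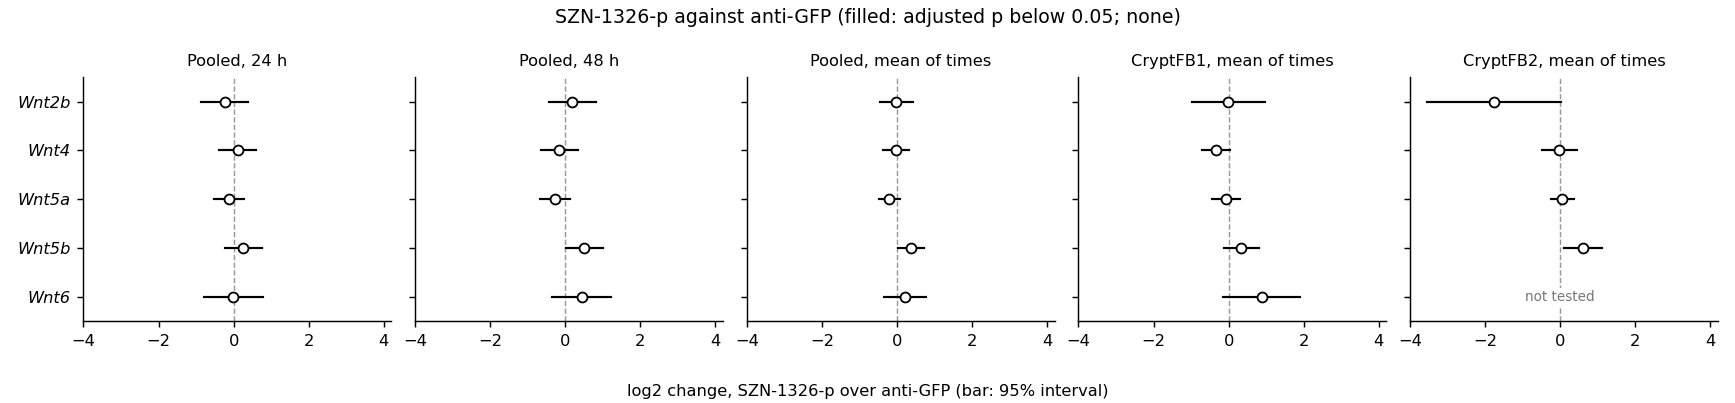
Log2 change of each ligand, SZN-1326-p over anti-GFP (horizontal axis), in pooled fibroblasts by time and in 2 of the authors' types; bars are 95% intervals and no point passed an adjusted p of 0.05. The intervals span 0 except those of Wnt5b in pooled fibroblasts over both times (0.03 to 0.73) and at 48 h, and in CryptFB2 (0.10 to 1.10).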

How the data were processed

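Single-cell RNA-seq libraries from 16 mice were used. Per the submitters' processing notes, Cell Ranger 3.0.2 and the mouse build mm10 were used, with the filters on cells, the treatment of doublets and the making of the size factors not given in the sources used here. The authors deposited 1 matrix in log2 units, log2 of UMI count over a cell's size factor plus 1, and an annotation (unit other) with mouse, group and cell type. Undoing the log2 gave whole UMIs for 100% of 60867816 entries (tolerance 1e-06). The annotation's treated label SWAP was taken as SZN-1326-p. No doublet caller was run.

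Un-logged values were averaged over the cells of each mouse with at least 20 cells of a class, and log2(mean + 0.01) was tested with limma 3.58.1 (trend, robust; R 4.3.3), two-sided, after a filter on low values (mean of at least 0.05 in at least 2 mice). Each mouse is 1 replicate. The 6 groups of arm and time shared 1 fit, and p-values were adjusted by Benjamini-Hochberg over all genes tested. DSS changes average both times. Fold changes are on the log2(mean + 0.01) scale, which understates changes of low genes. SE follows log2 changes and SD follows levels. Shares of UMIs were compared by exact permutation within time in Python 3.11.15 with scipy 1.17.1, with a smallest p of 0.01 for DSS and 0.005 for SZN-1326-p. Alternatives were another pseudocount, no filter, fits restricted to the arms compared, a block for replicate number and leaving out single mice. Further ones were other minimums of cells per mouse, other scalings, voom, fixed type weights and a term for long-transcript libraries. Cells with markers of another lineage were left out in 1 alternative, and the 2 SZN-1326-p mice of highest mitochondrial share in another. An adjustment of the DSS shares without 3 types near absent in 1 arm was chosen after seeing the data.

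The members and lists were chosen with earlier results of these data known. Named genes were the 5 members, list genes past the test (up to 6 a list) and the 3 genes per member with the most similar levels over cell types; list genes named beyond these (Wls, Porcn, Axin2, Wnt2, Wnt16, and Grem1 for SZN-1326-p) were added after their values were seen. Promoter sequences are from RefSeq.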

Additional observations from a re-analysis of the deposited data

Results flagged for a closer look

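In 4 of 64 groups of mice, the highest mouse stood apart from the rest of its group by more than Dixon's 95% limit, which about 1 group in 20 does by chance. Wnt5b in CryptFB1 was at 0.658 normalized UMIs per cell in SZN-1326-p 48 h mouse 2, where the next of the 6 SZN-1326-p mice was at 0.369. The other 3 rest on a few UMIs beside groups at 0. Wnt2b in CryptFB2 was at 0.0604 in SZN-1326-p 24 h mouse 1 and at 0 in the other SZN-1326-p mice. Wnt6 in BaseCryptFB2 was at 0.0625 in SZN-1326-p 48 h mouse 1 and at 0.0176 in anti-GFP 48 h mouse 1, with the other mice of both arms at 0.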

How the results depend on the processing

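Log2 changes are given unless stated. The 2 mice of highest mitochondrial share are SZN-1326-p mice, so that leaving them out removed no mouse of the DSS comparison. For DSS that setting can move only the shared spread and the adjustment, and it does not check mitochondrial share. The DSS rise of Wnt5a in pooled fibroblasts passed under all 14 alternatives (0.45 to 1.52, adjusted p at most 0.000508). The Wnt4 call was lost with no filter (0.54), replicate numbers as a block (0.59), UMI sums scaled to the class total (0.44), median-of-ratios scaling (0.52), voom (0.43) and a term for long-transcript libraries (0.55), with adjusted p of 0.0570 to 0.0939. The Wnt5b call was lost with no filter, the compared groups alone or the 2 mice of highest mitochondrial share left out (-0.56 each), on means of the deposited log2 values (-0.048), with equal weights of fibroblast types (-0.57) and without cells with 2 markers of another lineage (-0.48), with adjusted p of 0.0517 to 0.218. Wnt2b passed with the compared groups alone or without the 2 mice of highest mitochondrial share (-0.61 each), on UMI sums (-0.72) and by voom (-0.71), and turned to 0.34 with equal weights. Wnt6 passed with a pseudocount of 0.1 (-0.32), on deposited log2 values (-0.025), UMI sums (-0.75), median-of-ratios (-0.84), voom (-1.07), equal weights (-1.37), without the 2 mice of highest mitochondrial share (-0.82) and with the long-transcript term (-0.79). The cause of these shifts was not tested.

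For SZN-1326-p no member passed under any alternative, and these values changed sign. Without the 2 mice of highest mitochondrial share Wnt2b was 0.30 over both times and 0.14 at 24 h, Wnt4 at 24 h -0.082 and Wnt5a at 24 h 0.076. Without cells with 2 markers of another lineage, at 24 h, Wnt4 was -0.029, Wnt5a 0.067 and Wnt6 0.15. Over both times Wnt2b was 0.024 with the long-transcript term, and Wnt4 was 0.047 on UMI sums and 0.052 by voom. Equal weights gave Wnt5a 0.0084 at 48 h and 0.090 for 48 h minus 24 h, and Wnt6 at 24 h was 0.018 with a pseudocount of 0.1 and 0.0052 with median-of-ratios. With at least 10 cells Wnt5a was 0.63 for DSS in MyoFB and -0.012 for SZN-1326-p in CryptFB2. The shares of Wnt4 in MyoFB and of Wnt5a in BaseCryptFB2 lost their call when the 3 types near absent in 1 arm were left out of the adjustment, and the Wnt5a share also lost it on recovered UMIs (-2.68 percentage points, against -4.23). On recovered UMIs the difference in share, in percentage points, was -0.582 for Wnt5a in CryptFB1 with DSS, and 1.83 for Wnt5b in CryptFB1 and -0.229 in InjuryCryptFB1 with SZN-1326-p.

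The genes called for SZN-1326-p over both times (15) were 5 and 7 with pseudocounts of 0.1 and 0.001, 4 with no filter, 58 with the replicate block, 4 by voom, 3 without cells with 2 markers of another lineage and 2 without the 2 mice of highest mitochondrial share. At 48 h (10) they were 6 with no filter, 72 with the block, 23 on deposited log2 values, 3 by voom, 5 without cells with 2 markers, 2 without the 2 mice and 101 with the long-transcript term. At 24 h (1) they were 0 with a pseudocount of 0.001, no filter, the groups alone, the block, without cells with 2 markers, without the 2 mice and with the long-transcript term. For 48 h minus 24 h (0) they were 2 with the block and 1 by voom. Deviations of same-numbered mice correlated at -0.32 to 0.42 (median 0.09, 7 of 14 pairs above 0.1). Those of other-numbered mice correlated at -0.52 to 0.39 (median -0.07, 7 of 28 pairs above 0.1). Deviations from means of 2 or 3 mice are not independent, so these values do not decide whether the numbers pair mice. The main fits did not use the numbers, and the block is given as an alternative.

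With 1 mouse left out, DSS changes in pooled fibroblasts were 0.47 to 0.64 for Wnt4, -0.69 to -0.48 for Wnt5b, -0.97 to -0.71 for Wnt6, -0.70 to -0.48 for Wnt2b and 1.39 to 1.54 for Wnt5a. For SZN-1326-p over both times they were -0.16 to 0.16 for Wnt2b, -0.13 to 0.15 for Wnt4, -0.28 to -0.10 for Wnt5a, 0.29 to 0.51 for Wnt5b and -0.0023 to 0.36 for Wnt6. At 24 h they were -0.50 to 0.14 for Wnt2b, -0.10 to 0.47 for Wnt4, -0.28 to 0.076 for Wnt5a and -0.44 to 0.22 for Wnt6. At 48 h Wnt2b was -0.064 to 0.47, and for 48 h minus 24 h Wnt5a was -0.35 to 0.0048. Within types, DSS gave Wnt2b -0.57 to 1.07 and Wnt5b -0.38 to 1.74 in BaseCryptFB2, and Wnt2b -0.068 to 2.54 in MyoFB. SZN-1326-p gave Wnt2b -0.25 to 0.29 and Wnt5a -0.17 to 0.048 in CryptFB1, and Wnt4 -0.27 to 0.22 in CryptFB2. Genes called numbered 1570 to 3009 for DSS, 3 to 78 for SZN-1326-p over both times, 0 to 0 at 24 h, 4 to 19 at 48 h and 0 to 1 for the difference.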

Other observations

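Over the 45 cell types with at least 50 cells, the genes whose levels were most like each member's were described by Pearson's r on the log2 scale, with no test because the types share libraries, depth and the clustering that made them. For Wnt2b these were Fgf10 (0.94), Actn3 (0.92) and Fgf7 (0.91), the fibroblast growth factors Fgf10 and Fgf7 being mesenchymal signals to epithelia. For Wnt5a they were Cybrd1 (0.89), Wnt5b (0.88) and Pdgfra (0.88), the receptor that marks subepithelial fibroblasts. Wnt5b was most like Srpx2 (0.91), Lrrc17 (0.90) and Wnt5a. Wnt4 was most like Cyp2c23 (0.87), Adamdec1 (0.85) and Sall1 (0.82), and Wnt6 most like Paqr6 (0.83), Galnt17 (0.79) and Cfap100 (0.79). Between members, Wnt6 and Wnt4 were at -0.03.

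Ligands were also read together in the same cells, thinned to 3000 UMIs. In CryptFB1, 44.2% of 699 cells with a Wnt5a UMI also held a Wnt4 UMI, against 35.5% of 383 cells without one. In CryptFB2 the same values were 51.2% of 322 and 52.5% of 40. In BaseCryptFB1, 9.52% of 84 cells with a Wnt2b UMI held Wnt4, against 26.2% of 623 without. These are pooled over mice and are given as descriptions.

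Outside the stroma, Wnt4 was seen in enteroendocrine cells (EnteroEnd1), at 0.341 ± 0.451 normalized UMIs per cell in 12 mice with at least 10 such cells. It had 33 UMIs there over all mice. Wnt6 was seen in tuft cells, with 7 UMIs over all mice.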
